A study of Ovis aries with 6 samples.

Results

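The receptors for bone morphogenetic proteins (BMP) and activins, together with anti-Müllerian hormone (AMH) and its own receptor, were followed through the cell types of the Hu sheep ovary. The genes were fixed by name and role, with earlier results of these data known. They are the type I receptors BMPR1B, BMPR1A and ACVR1, the type II receptors BMPR2, ACVR2A and ACVR2B, the hormone AMH and its type II receptor AMHR2, 8 of the 30574 genes in the deposited matrices. All 8 had counts, from 17377 unique molecular identifiers (UMI, each standing for 1 captured RNA molecule) of ACVR1 over all barcodes to 102 of AMHR2.

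The ovaries came from adult Hu ewes, for which the sources name no treatment, of 2 groups that differed in prolificacy. The high litter size (HLS) group held 3 ewes with litters of at least 3 lambs, and the low litter size (LLS) group held 3 ewes with litters of fewer than 2 lambs. All ewes were at oestrus, and 1 ovary of each was dissociated and sequenced as 1 library with the Chromium 3′ v3 chemistry, which reads the ends of polyadenylated RNA. The carrier state of each ewe for variants of BMPR1B was not analysed here.

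BMP ligands and AMH bind pairs of type I and type II serine/threonine kinase receptors at the cell surface. The type II receptor phosphorylates the type I receptor, which in turn activates the SMAD proteins that enter the nucleus. BMPR1B, BMPR1A and ACVR1 pass the signal to the BMP branch of the SMADs, ACVR2A and ACVR2B also serve activins, and AMHR2 is dedicated to AMH. In the ovary AMH is a product of granulosa cells, where it restrains follicle recruitment, and BMPR1B is known in sheep as a gene whose variation alters ovulation rate.

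The 6 libraries held 43329214 to 75549906 UMI, with a median of 3192 to 8349.5 UMI per barcode, and any pair of libraries shared 13 to 28 barcodes. Of 52290 barcodes, 36457 were retained as cells in 31 clusters, and clusters were named from marker genes among which none of the 8 genes stood. The 8 genes were also kept out of the genes that formed the clusters. The 6 types compared were endothelial-like (14936 cells), stromal-like (8226), granulosa-like (2962), immune-like (2637), perivascular-like (2637) and theca-like cells (1887). Summed marker lists were highest in the type they name in every ewe, except for the granulosa list, which summed to 9830 to 17000 UMI in 1000000 in theca-like and to 5560 to 10300 in granulosa-like cells. That list holds INHA and GSTA1, and GSTA1 was also among the leading genes of the theca-like cluster, beside CYP17A1, LHCGR and INSL3. Of the 8 oocyte markers in the matrices, BMP15, ZP2 and ZP4 were at 0 in granulosa-like cells of both groups. At least 1 UMI was seen for 4 of them in HLS and 5 in LLS ewes. The list summed to 3.54 to 4.95 UMI in 1000000 in HLS and 3.23 to 4.69 in LLS ewes. HLS replicate 1 stood apart, since between 41.3% (perivascular-like) and 47.4% (stromal-like) of the genes tested in a type had their lowest level relative to total UMI in that ewe.

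BMPR1B was highest in granulosa-like cells. Its level there was 90.8, 70.0 and 93.3 counts per 1000000 UMI (CPM) in HLS replicates 1 to 3 and 136, 138 and 110.4 in LLS replicates 1 to 3, or 106.5 ± 27.1 over all ewes (SD, n = 6). Stromal-like cells followed at 45.2 ± 13.3, theca-like cells at 20.5 ± 3.85, and perivascular-like cells at 11.2 ± 3.98. Each of these steps held within 6 of 6 ewes, so the order did not depend on any ewe. Immune-like (2.42) and endothelial-like cells (1.13) were at the bottom and could not be ordered, with 4 of 6 ewes higher in immune-like cells. In edgeR's quasi-likelihood test with the ewe as a block, each type was compared with the average of the remaining types, and granulosa-like cells stood higher by 3.62 on the log2 scale (SE 0.18, adjusted p = 2.69e-17). Stromal-like cells were higher by 2.27 (SE 0.18, adjusted p = 4.58e-12) and theca-like cells by 1.02 (SE 0.22, adjusted p = 0.000158), whereas the log2 difference was -4.26 in endothelial-like and -2.37 in immune-like cells.

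BMPR1A, the other BMP type I receptor, had a wider spread over the ovary, with its highest level in stromal-like cells. Levels there were 65.0, 112 and 125 CPM in HLS and 126, 134 and 124 in LLS animals, or 114 ± 25.1 (SD, n = 6). HLS replicate 1 was far below the other ewes, as it also was in theca-like (53.2 against 98.8 to 124), perivascular-like (53.1 against 84.9 to 101) and granulosa-like cells (30.6 against 59.6 to 81.3). Theca-like cells were at 101 ± 24.9, perivascular-like cells at 84.7 ± 16.4 and granulosa-like cells at 60.4 ± 16.6. The step from theca-like to perivascular-like cells held in 5 of 6 ewes and the steps above and below it in 6 of 6. Against the mean of the other types, BMPR1A was called higher in stromal-like (log2 difference 2.30), theca-like (2.18), perivascular-like (1.66) and granulosa-like cells (1.02) and lower in endothelial-like (-4.12) and immune-like cells (-3.03).

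ACVR1, a type I receptor for several BMP and activin-type ligands, showed another pattern and, among the types compared, was highest in endothelial-like cells. Its CPM there was 72.0, 52.6 and 85.2 in HLS ewes and 46.0, 89.96 and 86.8 in LLS ewes. The other types compared had means between 15.5 (immune-like) and 35.3 (stromal-like), and the drop from endothelial-like to stromal-like cells held in 6 of 6 ewes. Granulosa-like (17.1 ± 4.10, SD, n = 6) and immune-like cells (15.5 ± 5.87) were not told apart, with 4 of 6 ewes higher in granulosa-like cells. The log2 difference from the mean of the other types was 1.69 in endothelial-like cells (SE 0.12, adjusted p = 3.69e-14) and -0.96 in granulosa-like cells (SE 0.15, adjusted p = 2.85e-06) by edgeR. ACVR1 was also called in stromal-like (0.41), theca-like (-0.43) and immune-like cells (-0.77). The call in stromal-like cells was lost with theca-like cells joined to them (0.14, adjusted p = 0.420) or left out (0.31, adjusted p = 0.0677).

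**Figure D1:**
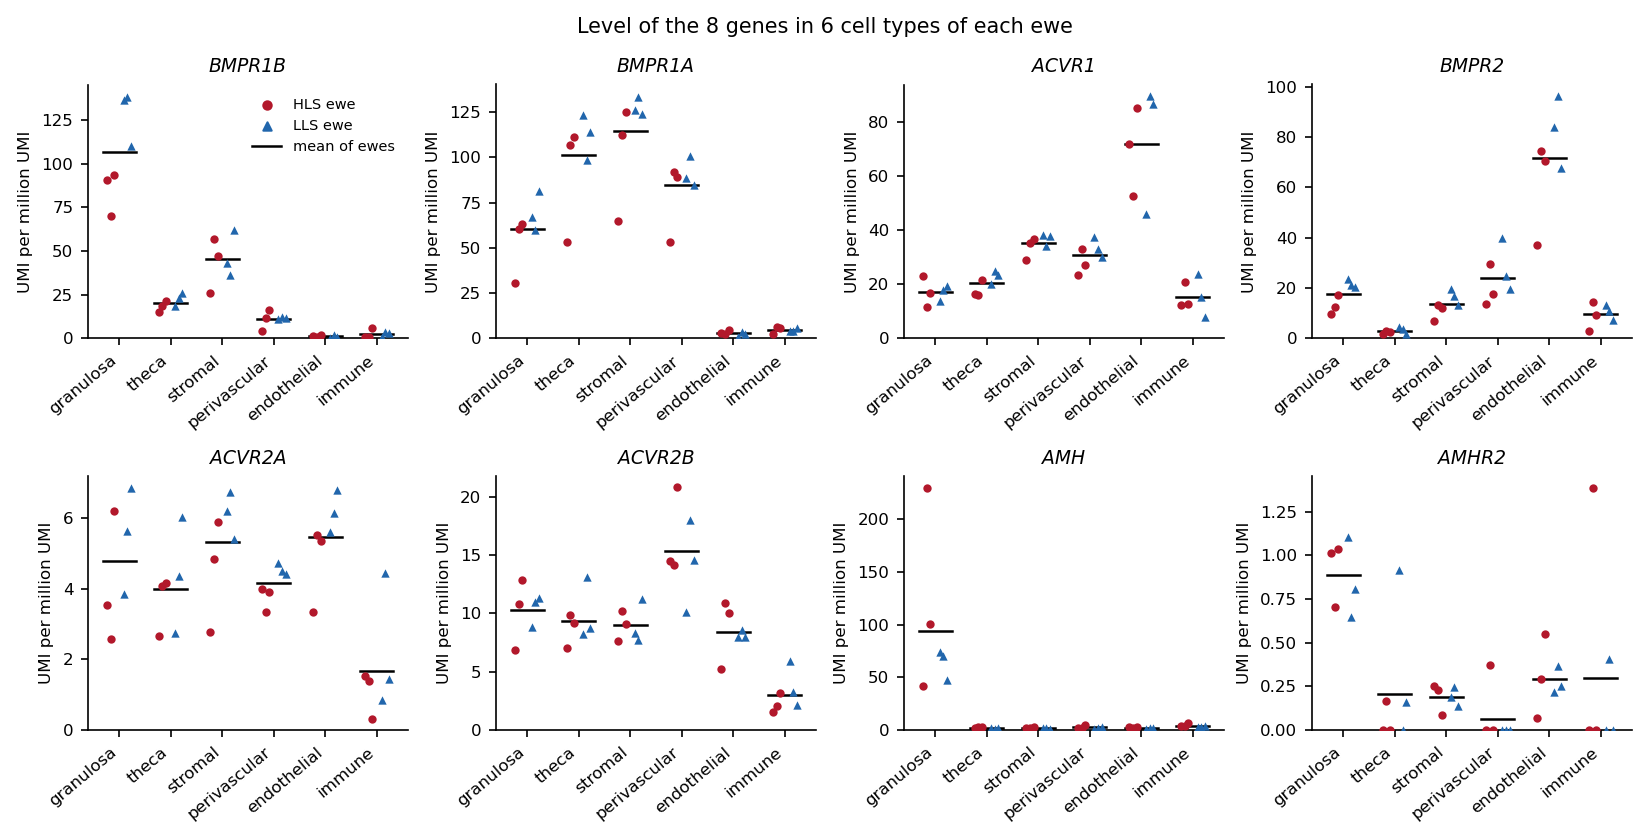
Level of each of the 8 genes (vertical axis, UMI per 1000000 UMI of the type, scale differs by panel) in 6 cell types (horizontal axis), 1 point per ewe, with HLS ewes as circles, LLS ewes as triangles and the mean of 6 ewes as a bar. BMPR1B and AMH peak in granulosa-like cells, BMPR1A in stromal-like cells, and ACVR1 and BMPR2 in endothelial-like cells.

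Among the type II receptors, BMPR2, the main partner of the BMP type I receptors, was also highest in endothelial-like cells. Levels there were 37.1, 74.4 and 70.5 CPM in HLS ewes and 83.9, 96.1 and 67.8 in LLS ewes, with HLS replicate 1 again the lowest. Theca-like cells had almost none, at 2.86 ± 1.15 (SD, n = 6), below immune-like cells (9.68) in 6 of 6 ewes. The log2 difference from the mean of the other types was 2.76 in endothelial-like cells (SE 0.09, adjusted p = 4.18e-23) and -2.85 in theca-like cells (SE 0.16, adjusted p = 3.74e-16) by edgeR. Perivascular-like cells were at 0.70 and immune-like cells at -0.55 on that scale, calls that were lost with theca-like cells joined or left out for the former (0.26 and 0.16) and with doublets kept for the latter (-0.27). Granulosa-like cells (17.4 CPM) were not called (0.12, adjusted p = 0.360).

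ACVR2A and ACVR2B, the type II receptors shared with activin, were low and rather even. In the types compared, ACVR2A lay between 4.01 (theca-like) and 5.46 CPM (endothelial-like) outside immune-like cells (1.66), and neighbouring types in that order were split 3 ewes against 3. ACVR2A was called higher in endothelial-like cells (0.58) and lower in immune-like cells (-1.36), and its call in stromal-like cells (0.46, adjusted p = 0.0268) was lost in 6 of the alternative settings. Of these types, ACVR2B was highest in perivascular-like cells, with 14.5, 14.1 and 20.8 CPM in HLS ewes and 10.1, 18.1 and 14.6 in LLS ewes. Granulosa-like cells came next at 10.3 ± 2.13 (SD, n = 6), below perivascular-like cells in 6 of 6 ewes. The log2 difference of ACVR2B was 0.86 in perivascular-like cells (SE 0.14, adjusted p = 5.02e-06) and -1.45 in immune-like cells.

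AMH was at 41.2, 229.8 and 101 CPM in the granulosa-like cells of HLS ewes and at 73.9, 70.1 and 47.7 in those of LLS ewes, or 93.9 ± 69.8 (SD, n = 6). It ranged from 0.973 to 6.32 in the other 5 types, so every granulosa-like value was above every other value. The log2 difference from the mean of the other types was 5.08 in granulosa-like cells (SE 0.17, adjusted p = 1.19e-21) and between -1.55 and -1.17 in the theca-like, stromal-like, perivascular-like and endothelial-like cells. Immune-like cells, at 3.89, were not called (0.07, adjusted p = 0.859) against a mean that includes the granulosa-like cells. AMHR2 was close to undetected, with 24 UMI in all granulosa-like cells together, or 0.885 ± 0.191 CPM (SD, n = 6), and a mean of at most 0.298 in any other type. It did not pass the low-count filter of any comparison, so no statement on a difference in AMHR2 can be made at this depth.

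Of the 7 genes that passed the filter, 4 were called in granulosa-like cells, where 56.2% of the 14489 genes tested were called. The counts were 5 of 7 in theca-like (63% of genes), 5 in stromal-like (50.9%), 4 in perivascular-like (49.4%), 6 in endothelial-like (67.4%) and 6 in immune-like cells (67.8%). A call between types was thus common among all genes. The 40 steps between neighbouring types were tested with exact two-sided sign-flip tests over ewes. The smallest p that 6 ewes allow is 0.03125, which became 0.07812 after Benjamini-Hochberg adjustment, so no single step passed 0.05.

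Shares of cells with at least 1 UMI were compared at equal depth. After every cell was thinned to 2000 UMI, 12.3% to 22.1% of granulosa-like cells had BMPR1B in the 6 ewes, against 0% to 0.804% of endothelial-like and 0% to 1.33% of immune-like cells. The median depth before thinning was 7953.5 UMI in granulosa-like, 8424.5 in endothelial-like and 3052 in immune-like cells. AMH was seen in 3.97% to 23.7% of granulosa-like cells and in 0.214% to 0.536% of endothelial-like cells, a level at which free RNA in the droplets cannot be told apart from expression. BMPR1A was seen in 14.4% to 25.02% of stromal-like cells, ACVR1 in 8.93% to 15.98% and BMPR2 in 6.94% to 14.9% of endothelial-like cells. AMHR2 was seen in 0% to 0.470% of granulosa-like and 0% to 0.826% of immune-like cells, or in 6 of 2638 and 3 of 2081 cells in all. At 4000 UMI it was seen in 10 of 2196 granulosa-like and 0 of 955 immune-like cells, counts too low to compare.

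Expression also differed between clusters of the same type. Clusters are named here by leading genes. Among stromal-like cells, BMPR1B was at 61.2 ± 13.4 CPM (SD, n = 6 ewes) in the COL11A1 and PTCH1 cluster and at 43.7 ± 14.5 in the LHX9 and PENK cluster, but at 7.04 ± 4.16 in the PI16 and DPT cluster. The highest ewe of the PI16 and DPT cluster (12.1) was below the lowest ewe of either other cluster (21.9 and 38.8). BMPR2 had the opposite order, with 6.56 ± 3.01, 15.5 ± 4.22 and 21.5 ± 7.38 in the same 3 clusters, and BMPR1A was at 99.9, 119 and 133. In perivascular-like cells ACVR2B was at 22.5 ± 3.26 in the KCNA5 and NTRK3 cluster and at 13.1 ± 3.30 in the RGS5 and KCNJ8 cluster, without overlap between the ewes' values.

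Endothelial-like clusters had different orders for ACVR1 and BMPR2. ACVR1 was highest in the SELP and IL6 cluster (101 ± 5.87 CPM, SD, n = 6) and in the GJA5 and SEMA3G cluster (94.5 ± 23.9), and lowest in the ESM1 and OIT3 cluster (39.3 ± 8.05) and the MMRN1 and PROX1 cluster (45.5 ± 7.34). PROX1 is known as a regulator of lymphatic endothelium, and GJA5 and SEMA3G mark arterial endothelium. BMPR2 was highest in the GJA5 and SEMA3G cluster (104.5 ± 23.1), followed by the FABP4 and ACKR1 cluster of 275 cells (99.5 ± 15.9, n = 3 ewes with enough cells) and the PROCR and ACKR1 cluster (95.7 ± 31.0), and lowest in the MMRN1 and PROX1 cluster (44.7 ± 9.90) and the CA4 and PPP1R1B cluster (46.2 ± 13.5). The CA4 and PPP1R1B cluster thus combined a high ACVR1 level (81.6 ± 8.15) with a low BMPR2 level. No test was made between clusters of a type.

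**Figure D2:**
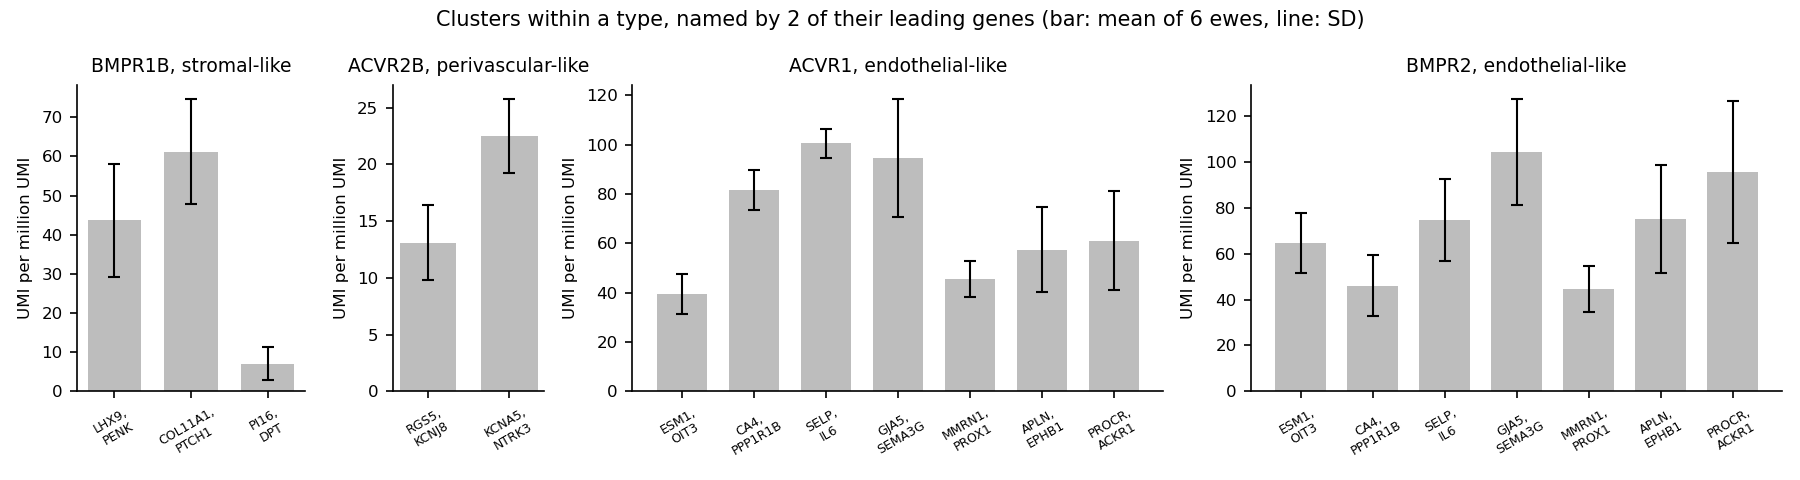
Level (vertical axis, UMI per 1000000 UMI) of BMPR1B in stromal-like, ACVR2B in perivascular-like, and ACVR1 and BMPR2 in endothelial-like clusters (horizontal axis, clusters with enough cells in all 6 ewes, named by 2 leading genes), as the mean of 6 ewes with the SD as a line. The PI16 and DPT stromal-like cluster has a BMPR1B level of 7.04 beside 43.7 and 61.2 in the other 2 clusters.

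Granulosa-like cells were clustered again, and their states were named from markers of early (eGC, 840 cells), mural (mGC, 931) and cumulus granulosa cells (CC, 315) and of cycling cells (193). Mural cells line the follicle wall and cumulus cells surround the oocyte. A further 143 cells were oestrogenic-like and 540 stayed unnamed, and both sets were kept in the granulosa-like sums. An unnamed sub-cluster of 100 cells had SELP, VWF and KDR among its leading genes, and another of 110 cells had RGS5 and HSD3B1. VWF was on the endothelial and RGS5 on the perivascular marker list. The states were spread unevenly over the ewes, since HLS replicate 3 gave 461 of the eGC-like cells, and HLS replicate 2 and LLS replicate 2 gave 141 and 105 of the CC-like cells. Among the 4 mGC-like sub-clusters, 1 was led by the interferon-response genes MX1 and ISG15 and drew 99% of its cells from 1 ewe, and another drew 94.7% from 1 ewe.

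BMPR1B was graded over the states and was highest in mGC-like cells. CPM there were 97.0, 144 and 111 in HLS ewes and 191, 181 and 164 in LLS ewes, against 100.2 ± 20.6 in eGC-like, 54.4 ± 17.2 in CC-like and 28.0 ± 12 in cycling cells (SD, n = 6, or 5 for cycling cells, of which HLS replicate 1 had fewer than 10). The order from mGC-like to eGC-like to CC-like cells held in 6 of 6 ewes at each step, and CC-like cells were above cycling cells in 5 of 5. By edgeR with the ewe as a block, BMPR1B differed from the mean of the other states by 1.33 in mGC-like (SE 0.13, adjusted p = 4.76e-10), 0.69 in eGC-like (SE 0.15, adjusted p = 0.000567) and -1.63 in cycling cells (SE 0.20, adjusted p = 7.85e-08) on the log2 scale. The call in eGC-like cells was lost with doublets kept (0.32, adjusted p = 0.142). With all ewes pooled, the mGC-like sub-clusters ranged from 95.3 to 181 CPM and the eGC-like sub-clusters from 90 to 139 CPM, so single sub-clusters of these states overlapped. BMPR1B was still called in mGC-like cells when the sub-clusters that came nearly whole from 1 ewe were left out, a setting chosen after the data had been seen.

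AMH ran the other way. The authors had named AMH and INHA as markers of cumulus cells in these same ewes, and INHA was among the markers of the CC state here. The AMH pattern over the states is therefore not independent of that earlier result. It was at 358, 359 and 467 CPM in the CC-like cells of HLS ewes and at 374, 228 and 340.2 in those of LLS ewes, and at 286 ± 93.2 in cycling cells (SD, n = 5). In eGC-like cells it was at 91.5 ± 55.9, and in mGC-like cells at 6.30 ± 2.11 (SD, n = 6), close to the levels outside granulosa-like cells. No mGC-like value overlapped with those of the other 3 states. The log2 difference from the mean of the other states was 2.73 in CC-like (SE 0.17, adjusted p = 5.48e-13), 2.43 in cycling (SE 0.19, adjusted p = 3.33e-12) and -4.93 in mGC-like cells (SE 0.25, adjusted p = 9.53e-17) by edgeR. CC-like and cycling cells were in that order in 4 of 5 ewes and were not told apart.

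Of the other receptors, ACVR1 shared the mGC-like peak of BMPR1B, with 28.5 ± 5.20 CPM (SD, n = 6) against 10.7 ± 2.20 in eGC-like, 6.85 ± 1.76 in CC-like and 6.35 ± 3.71 in cycling cells. Over these ewes ACVR1 had 344 UMI in mGC-like, 63 in eGC-like, 22 in CC-like and 12 in cycling cells. Pooled over ewes, ACVR1 ranged from 19.9 to 44.8 CPM in the mGC-like sub-clusters and was at 26.0 in the eGC-like sub-cluster of 153 cells. The mGC-like sub-cluster at 44.8 scored 1.29 on the marker list of atretic granulosa cells, beside 1.6 on the mural list. By edgeR the log2 difference of ACVR1 was 2.02 in mGC-like cells (SE 0.19, adjusted p = 3.03e-10). It was -1.26 in cycling cells, a call lost without HLS replicate 2. In the fits of HLS against LLS ewes within a state, ACVR1 passed the low-count filter in mGC-like cells only. The test therefore describes that peak and is no separate support for it. BMPR1A was highest in eGC-like cells (86.3, log2 difference 0.54, adjusted p = 0.00329, a call lost with doublets kept) and lowest in mGC-like cells (49.9, log2 difference -0.55, adjusted p = 0.00112). The eGC-like sub-clusters were uneven in BMPR1A. With all ewes pooled, those of 515, 172 and 153 cells were at 66.55, 97.4 and 167 CPM, beside 68.4 in cycling cells. The sub-cluster of 153 cells had FRZB and PCDH7 among its leading genes, as had the LHX9 and PENK stromal-like cluster. Its pooled ACVR2B was 32.1 CPM, against 14.6 and 17.9 in those of 515 and 172 cells. Whether it holds stromal cells was not tested. ACVR2B was called in eGC-like cells (18.6 ± 13.8, log2 difference 1.01, adjusted p = 0.0101) but not without HLS replicate 3 or LLS replicate 2, which held the highest value (45.4). Only 4 of the 6 fits without 1 ewe gave ACVR2B a value. BMPR2 had a mean between 14.1 and 17 in the 4 states and was not called in any. In oestrogenic-like cells, which were not tested, BMPR2 was at 38.5 and 40.5 CPM in the 2 ewes with enough cells, from 20 UMI. ACVR2A and AMHR2 did not pass the filter, and 16 of the 24 UMI of AMHR2 were in eGC-like cells.

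The number of genes called among the 6 tested was 3 in eGC-like (35.2% of all 8461 genes), 4 in mGC-like (52.7%), 1 in CC-like (17.6%) and 3 in cycling cells (34.8%). The 1 call in CC-like cells, that of AMH among the 6 genes tested, was near the share over all genes. The 24 steps between neighbouring states had an adjusted exact sign-flip p of 0.1667 at best, the smallest that these ewes allow being 0.03125 before adjustment.

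**Figure D3:**
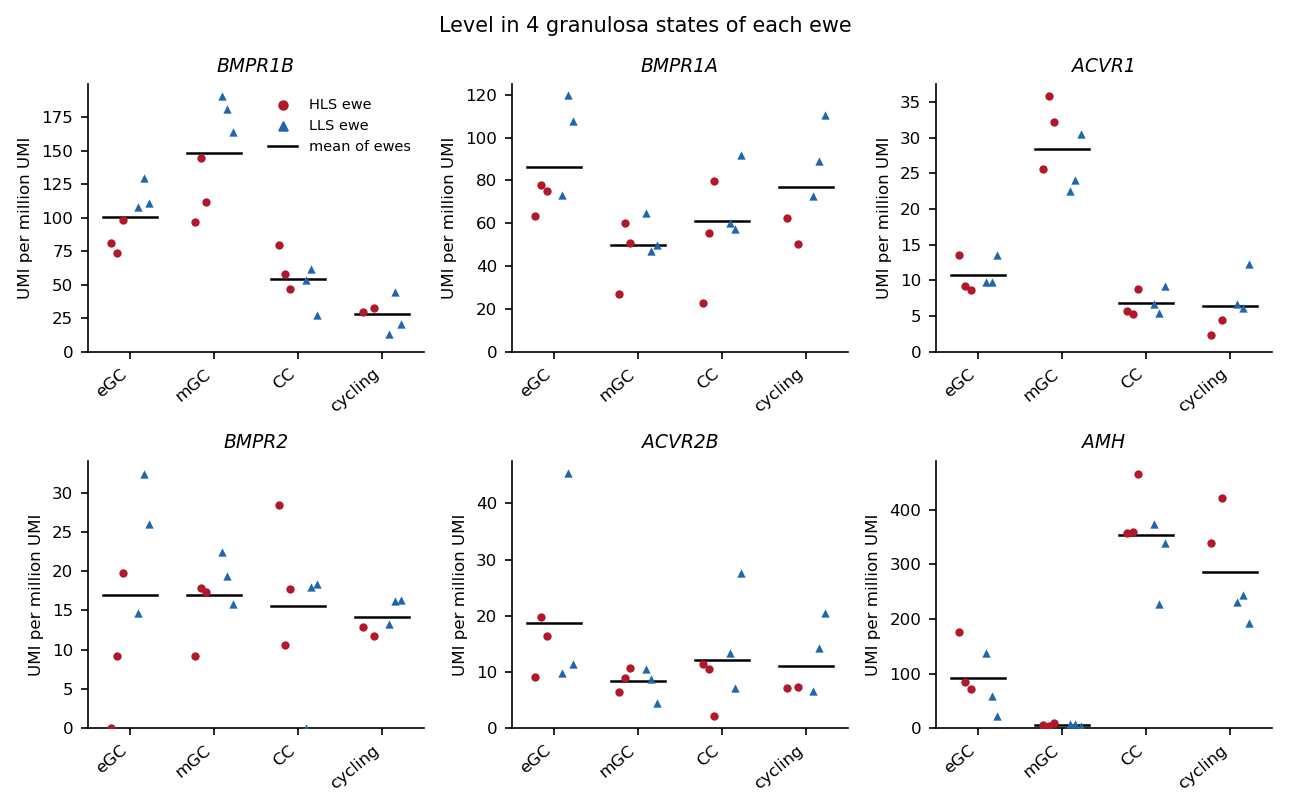
Level of 6 genes (vertical axis, UMI per 1000000 UMI, scale differs by panel) in 4 granulosa states (horizontal axis), 1 point per ewe with at least 10 cells of the state, HLS ewes as circles and LLS ewes as triangles, with the mean as a bar. BMPR1B and ACVR1 are highest in mGC-like cells, where AMH has a mean of 6.30 beside 354 in CC-like cells.

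Receptor levels were then compared between granulosa-like cells with at least 1 UMI of AMH (AMH-positive, 675 cells) and those with none (2287 cells) of the same ewe. BMPR1B was lower in AMH-positive cells of every ewe, with 58.4, 47.3 and 74.6 CPM in HLS ewes and 55.5, 63.2 and 65.4 in LLS ewes, against 97.6, 105 and 102 and 160.3, 163 and 121 in AMH-negative cells. The values of the 2 classes did not overlap. ACVR1 was also lower in 6 of 6 ewes, at 4.82 to 16.1 in AMH-positive and 16.5 to 24.5 in AMH-negative cells. The value of 4.82, in LLS replicate 1, rested on 2 UMI. The log2 difference was -0.93 for BMPR1B (SE 0.13, adjusted p = 4.13e-05) and -1.06 for ACVR1 (SE 0.22, adjusted p = 0.00139) by edgeR with the ewe as a block. BMPR1A (-0.04), BMPR2 (-0.35) and ACVR2B (-0.21) were not called, so that 2 of the 5 receptors tested were called, where 34.9% of all 10032 genes were.

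These classes differed in state and in depth. AMH-positive cells made up 231 of the 315 CC-like and 143 of the 193 cycling cells but 71 of the 931 mGC-like cells, and their median depth was higher in every ewe (9204 to 17014.5 UMI against 4336 to 12167). With cells thinned to 2000 UMI before the split, BMPR1B was still called (-1.14, adjusted p = 0.00196) and ACVR1 did not pass the filter. Within eGC-like cells alone (3 ewes with enough cells), the log2 difference of BMPR1B was 0.06 (adjusted p = 0.939), and within CC-like cells alone (2 ewes) it was -0.43 (adjusted p = 0.619). Few genes were called within a state, 131 of 7032 in eGC-like and 202 of 6511 in CC-like cells, and none of the 4 and 2 receptors tested there was among them. These within-state comparisons were chosen after the data had been seen. None was made within mGC-like cells, where BMPR1B was highest, or within cycling cells.

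**Figure D4:**
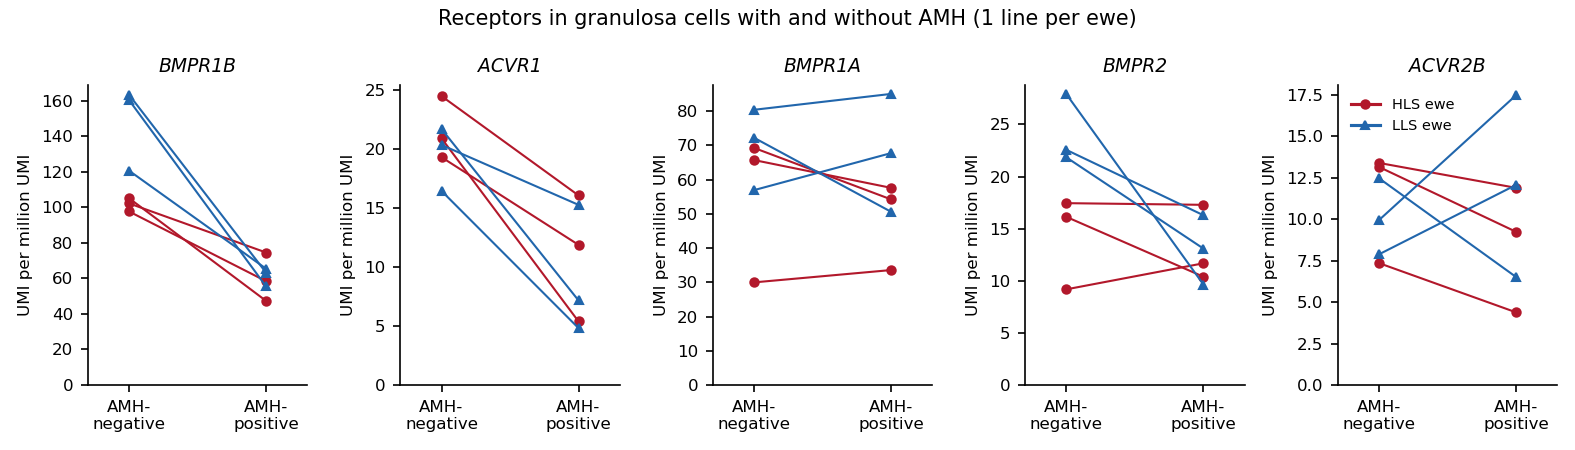
Level of 5 receptors (vertical axis, UMI per 1000000 UMI, scale differs by panel) in AMH-negative and AMH-positive granulosa-like cells (horizontal axis), 1 line per ewe, HLS ewes as circles and LLS ewes as triangles. BMPR1B and ACVR1 fall in all 6 ewes, whereas the lines of BMPR1A, BMPR2 and ACVR2B run in both directions.

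The comparison of HLS with LLS ewes asked whether these genes differ with prolificacy. No gene of any kind was called by edgeR in granulosa-like cells (0% of 11917 genes, with 573 at an unadjusted p under 0.05 and 3 called by DESeq2), and the same 0 held in every other type and in the 4 states. Unadjusted counts there were 405 in theca-like, 687 in stromal-like, 314 in perivascular-like, 201 in endothelial-like and 480 in immune-like cells, and 146 to 403 in the states. DESeq2 called 0, 1, 1, 4 and 22 genes in those types and 0 to 2 in the states, with none of the 8 genes among its calls.

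In granulosa-like cells BMPR1B had a log2 difference of -0.40 between HLS and LLS ewes (SE 0.20, edgeR, adjusted p = 0.948). In CPM, the highest HLS ewe (93.3) was below the lowest LLS ewe (110.4), where 14.9% of all genes tested had groups that did not overlap. After TMM scaling, which corrects for the composition of each sum, HLS replicate 1 was at 108 and the groups overlapped (72.8 to 108 against 105 to 132). Without that ewe the log2 difference was -0.53 (adjusted p = 0.617), and without HLS replicate 2 it was -0.26 (adjusted p = 0.898). With totals in place of TMM factors it was -0.60, while the median of all genes moved from 0.01 to -0.18, and with the state as a term, chosen after the data had been seen, it was -0.26. The theca and stromal marker lists had overlapping but different ranges in the granulosa-like cells of the groups. Of the theca list, CYP11A1, LHCGR and HSD3B1 also stood on marker lists of granulosa states, so that list is not specific to theca cells. The 6 theca markers, all detected, summed to 84.0 to 217 CPM in HLS and 197 to 365 CPM in LLS ewes, and the 8 stromal markers, all detected, to 381 to 922 and 645 to 1080 CPM. Their part in the differences was not tested.

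The BMPR1B values of the groups were apart in 2 granulosa states on either scale. In CPM, 9.72% of all genes tested were also apart in mGC-like and 12.9% in eGC-like cells. After TMM scaling, these shares were 9.31% and 11.8%. In mGC-like cells the TMM-scaled levels were 116, 141 and 111 CPM in HLS ewes and 186, 179 and 157 in LLS ewes, a log2 difference of -0.51 (SE 0.20, edgeR, adjusted p = 0.989). The ewes drew on different mGC-like sub-clusters, as described above. Without the pair of sub-clusters that came nearly whole from 1 ewe, chosen after the data had been seen, the levels were 120.1, 145 and 115 against 201, 176 and 164, and the log2 difference was again -0.51 (adjusted p = 0.955). In eGC-like cells they were 95.9, 81.6 and 106 against 107, 129 and 116, a log2 difference of -0.30 (SE 0.24, adjusted p = 0.999), or -0.20 without HLS replicate 2. In CC-like cells the groups overlapped and the log2 difference was 0.18 (SE 0.36). The share of granulosa-like cells with BMPR1B at 2000 UMI was 13.6% ± 1.11 in HLS and 20.5% ± 2.30 in LLS ewes (SD, n = 3 each), a difference of -6.88 percentage points. The exact permutation p of that difference was 0.1, the smallest that 3 against 3 ewes allow (0.8 after adjustment over 8 genes). Without thinning the difference was 2.89 points in the other direction. The median depth of unthinned granulosa-like cells was 12749.5, 8246.5 and 8906.5 UMI in HLS and 4976.5, 8086 and 5095.5 in LLS ewes. The part of depth in that change was not tested.

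AMH had a log2 difference of 1.11 between HLS and LLS ewes in granulosa-like cells (SE 0.50, edgeR, adjusted p = 0.948), which rested on HLS replicate 2. That ewe had 229.8 CPM and 141 of the CC-like cells, and without it the log2 difference was 0.33. With the state as a term it was 0.53. CC-like cells numbered 12, 141 and 29 in HLS replicates 1 to 3 and 14, 105 and 14 in LLS replicates 1 to 3. Within them the log2 difference of AMH was 0.46 (SE 0.25, edgeR, adjusted p = 0.99987). The TMM-scaled values were 458, 407 and 481 in HLS and 395, 250.1 and 350.2 in LLS ewes. The groups did not overlap on that scale, where 10.3% of all genes tested in CC-like cells did not, but overlapped in CPM. Within cycling cells AMH was at 339 and 422 CPM in HLS replicates 2 and 3 and at 232, 243 and 192 in LLS replicates 1 to 3 (log2 difference 0.82, edgeR, adjusted p = 0.99986), HLS replicate 1 being left out of that fit for its 4 cells. In eGC-like (0.90) and mGC-like cells (-0.08) the groups overlapped.

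**Figure D5:**
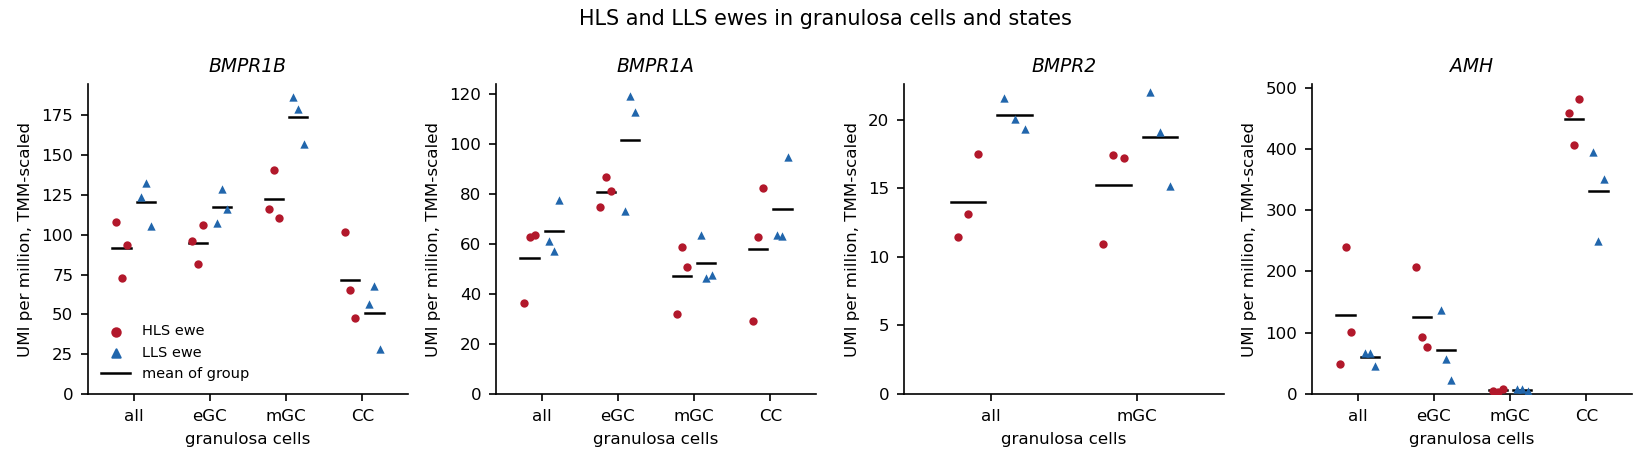
TMM-scaled level (vertical axis, UMI per 1000000) of BMPR1B, BMPR1A, BMPR2 and AMH in HLS ewes (circles) and LLS ewes (triangles) in all granulosa-like cells and in those of the eGC-like, mGC-like and CC-like states where the gene passed the filter (horizontal axis), with the mean of 3 ewes as a bar. In mGC-like cells BMPR1B lies between 111 and 141 in HLS ewes and between 157 and 186 in LLS ewes.

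BMPR2 in granulosa-like cells was at 9.62, 12.6 and 17.4 CPM in HLS ewes and at 23.7, 21.0 and 20.2 in LLS ewes. The groups stayed apart after TMM scaling (11.4 to 17.5 against 19.3 to 21.6), where 11% of all genes tested were apart. The log2 difference was -0.52 (SE 0.23, edgeR, adjusted p = 0.948), or -0.39 without HLS replicate 1. In stromal-like cells BMPR2 differed by -0.58 (edgeR, adjusted p = 0.810), or -0.41 without HLS replicate 1. For BMPR1A (-0.26), ACVR1 (0.20), ACVR2A (-0.22) and ACVR2B (0.14) the log2 difference in granulosa-like cells was smaller than or close to its standard error. The BMPR1A value shrank to -0.05 without HLS replicate 1.

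On the CPM scale, the groups did not overlap for 2 of the 7 genes tested in granulosa-like cells (BMPR1B and BMPR2), where 14.9% of all genes did not overlap. The count was 1 of 7 in endothelial-like cells (ACVR2A, 4.54% of genes), and 0 in theca-like (10.1%), stromal-like (10.1%), perivascular-like (8.04%) and immune-like cells (10.2%). It was 1 of 3 in eGC-like (BMPR1B, 12.9%), 1 of 6 in mGC-like (BMPR1B, 9.72%), 0 of 3 in CC-like (10.2%) and 2 of 3 in cycling cells (BMPR1A and AMH, 18.6%). After TMM scaling the count was 1 in granulosa-like (BMPR2, 11% of genes), 1 in theca-like (AMH, 9.07%), 1 in stromal-like (BMPR1A, 11.3%) and 1 in endothelial-like cells (ACVR2A, 5.2%), and 0 in perivascular-like (8.14%) and immune-like cells (11%). In the states it was 1 in eGC-like (BMPR1B, 11.8%), 2 in mGC-like (BMPR1B and ACVR1, 9.31%), 1 in CC-like (AMH, 10.3%) and 2 in cycling cells (BMPR1A and AMH, 18.7%). The difference of the HLS against LLS change between granulosa-like cells and the other types was also tested, and 0% of 14489 genes were called (308 at an unadjusted p under 0.05), none of the 7 genes among them.

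A wider list of 63 ligands, co-receptors, antagonists, SMADs and target genes of the same pathways, the 8 genes left out, was counted in the same fits. In granulosa-like cells 18 of the 48 listed genes that were tested were higher and 17 lower than in the mean of the other types, with a median log2 difference of -0.09 beside -0.02 over all genes. Of all 14489 genes tested, 4042 were higher and 4100 lower there (56.2% called). The inhibin subunits INHA (5.81), INHBB (4.49) and INHBA (4.35) and the activin-binding protein FST (5.33) changed most, and these 4 were among the markers that named the granulosa-like cells. In theca-like cells 8 listed genes were higher and 23 lower (median -0.41 beside -0.05). Of all genes, 4425 were higher and 4709 lower there (63% called). The listed genes were led by the ligand GDF5 (5.84), INHA (3.43), the inhibitory SMAD6 (-3.24) and the type I receptor ACVRL1 (-3.18).

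Stromal-like cells had 27 of the 48 listed genes higher and 6 lower (median 0.48 beside 0.02), where 4184 of all genes were higher and 3189 lower (50.9% called), led by the BMP-binding BMPER (2.50), the co-receptor RGMA (2.42), the BMP target ID4 (2.21) and INHA (-2.09). In perivascular-like cells 19 listed genes were higher and 7 lower (median 0.19 beside -0.06). Of all genes, 3551 were higher and 3613 lower there (49.4% called). TGFB3 (3.58), ID4 (2.41), INHA (-2.34) and FST (-2.26) were at the top of the listed genes. In endothelial-like cells 23 listed genes were higher and 12 lower (median 0.27 beside -0.0029), and 5033 of all genes were higher and 4728 lower (67.4% called). The listed genes were led by the co-receptor ENG (4.40), INHBA (-4.09), ACVRL1 (3.73) and SMAD1 (3.71), which carries BMP signals to the nucleus. Immune-like cells had 8 listed genes higher and 31 lower (median -1.37 beside -0.11), and 4574 of all genes higher and 5254 lower (67.8% called). The largest differences of listed genes were those of ID4 (-4.23), the ligands TGFB2 (-3.05) and BMP2 (-3.00), and TGFB1 (2.86).

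Over all genes, 2262 were higher and 2197 lower in mGC-like cells, and 806 and 679 in CC-like cells. The counts were 1571 and 1373 in cycling and 1462 and 1517 in eGC-like cells. Between granulosa states, 31 listed genes were tested. In mGC-like cells (52.7% of all 8461 genes called) 10 were higher and 9 lower, among them INHA (-5.26), FST (-4.97), TGFB1 (3.67) and BMP2 (2.98). In CC-like cells (17.6%) 8 were higher and 3 lower, with INHA (3.21), INHBA (2.98), FST (2.65) and the inhibitory SMAD7 (-1.24), and in cycling cells (34.8%) 9 were higher and 8 lower, with INHA (3.39), INHBA (3.12), FST (2.95) and TGFB2 (-2.80). In eGC-like cells (35.2%) 8 were higher and 6 lower, with INHBA (-5.65), INHBB (-1.49), the inhibin co-receptor TGFBR3 (1.35) and INHA (-1.34). INHA, INHBB and FST were among the markers of the CC state. Between AMH-positive and AMH-negative cells 11 of 35 were higher and 12 lower, with FST (3.05), INHA (2.25), TGFB1 (-1.94) and the BMP antagonist CHRDL1 (1.51). Of all genes, 1710 were higher and 1792 lower in AMH-positive cells (34.9% called). Between HLS and LLS ewes none of the listed genes was called by edgeR in any type or state, with 1 to 3 at an unadjusted p under 0.05 in each.

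The genes whose pattern was most like that of BMPR1B over the 36 sums of 6 ewes and 6 types were HTRA3, with a Pearson r of log2 CPM of 0.956, CSRNP3 (0.944), MKX (0.942), B4GALT4 (0.938) and RASL11B (0.938). HTRA3 was also a marker of the mGC state. The genes most like AMH were SCN10A (0.918), FSHR (0.916), GOLPH3 (0.912), CDH12 (0.909) and NMRK2 (0.901). FSHR, the receptor for follicle-stimulating hormone, was among the granulosa markers. The 36 points share ewes and libraries, and the values are a description only.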

How the data were processed

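The authors made the data with Cell Ranger 5.0.0, which uses STAR, and deposited 1 matrix per library of unnormalised UMI counts; the genome build is not given in the sources used here. Barcodes were removed below 200 genes, below 1000 UMI, at a log10 gene to log10 UMI ratio under 0.7, or above 10% mitochondrial or 5% haemoglobin UMI, and 2007 doublets were called from simulated doublets. Cells were clustered on 2000 variable genes, 30 components and 20 neighbours at resolution 0.8 (Python 3.11.15, numpy 2.4.6, scipy 1.17.1, pandas 2.3.3, scikit-learn 1.9.0, igraph 0.11.9, leidenalg 0.10.2, matplotlib 3.10.9). Cell type names were rebuilt here from marker lists, with a score of at least 0.5 and at least 3 usable markers, a rule set after the clusters had been seen. Listed genes not matched by name included NBL1, HBA1 and OOSP2, and CYP19A1 is listed as CYP19.

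UMI were summed per ewe and type, state or AMH class where at least 10 cells were present, and tested with edgeR 4.0.16 (quasi-likelihood test, TMM factors, limma 3.58.1, R 4.3.3), with Benjamini-Hochberg adjustment over all genes tested and a threshold of 0.05. DESeq2 1.42.0 was an alternative. The edgeR fits of HLS against LLS by type, and of granulosa-like cells against the other types, were tested on simulated counts. For the thinned shares, 27 to 88 granulosa-like cells per ewe with fewer than 2000 UMI were left out. The 3′ counts are not scaled by gene length, so levels of different genes are not compared. Levels (CPM) are UMI per 1000000 UMI of the sum. The 8 genes were named in every comparison, listed pathway genes by the 4 largest absolute log2 differences among those called, and similar genes by the 5 highest correlations; genes named by LOC numbers were left out of the last. The genes and lists were chosen with earlier results of these data known. Each ewe gave 1 library, so p-values cover the spread between ewes and libraries together.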

Additional observations from a re-analysis of the deposited data

How the results depend on the processing

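Over 28 alternative settings, 968 values of 72 results were recomputed, of which 920 were classed as the same. For a log2 difference this meant the same sign and side of the threshold, and for a share of cells the same sign. A count of calls had to be equal or of similar size. Calls between types, with a gene counted once for each type, numbered 25 to 32 (30 in the text). Calls between states, counted in the same way, numbered 9 to 14 (11 in the text). None of the 8 genes was called between HLS and LLS ewes in any setting. Receptors called by AMH class numbered 1 after thinning, and 0 within eGC-like and 0 within CC-like cells, where BMPR1B was at 0.065 and ACVR2B at 0.098 in eGC-like cells.

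Small HLS against LLS differences in granulosa-like cells changed sign, with ACVR1 at -0.011 and ACVR2B at -0.027 on totals, and ACVR2B at -0.030 with the state as a term. Leaving out 1 ewe gave -0.15 to 0.43 for ACVR1, -0.61 to 0.031 for ACVR2A and -0.024 to 0.30 for ACVR2B, and -0.12 to 0.010 for BMPR1A by AMH class. Differences in the share of cells, in percentage points, were 2.89 (BMPR1B), 2.98 (BMPR1A), 4.17 (ACVR1) and 0.159 (ACVR2A) without thinning, 0.386 (ACVR1) and -0.0791 (ACVR2B) at 1000 UMI and 0.944 (ACVR1) at 4000 UMI. Without 1 ewe they ran from -3.29 to 0.710 (BMPR1A), -0.902 to 0.110 (ACVR2A), -0.320 to 0.660 (ACVR2B) and -0.0419 to 0.193 (AMHR2). Unthinned granulosa-like cells were deeper in HLS ewes, as given above, and the cause of these changes was not tested.

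Calls lost elsewhere were perivascular-like BMPR2 and stromal-like ACVR1 with theca-like cells joined or left out, and immune-like BMPR2 and eGC-like BMPR1B and BMPR1A with doublets kept. With the replicate number as a block, BMPR1B in granulosa-like cells was at -0.41 and AMH at 0.88, and 0 of the 8 genes were called. Same-numbered ewes had correlated deviations of -0.344 to 0.284, so the numbers were not taken as pairing. Over all types, 223 genes were called without the low-count filter, 31 by DESeq2, 2 with the block and 0 to 6 without 1 ewe, beside 0 in the text. The HLS against LLS differences of BMPR1B and AMH did not pass adjustment over all genes in any setting run, and AMHR2 was too sparse to compare.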

Other observations

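Outside the 6 types compared, epithelial-like cells (319) had BMPR1B at 44.9 CPM (95% exact Poisson interval 37.3 to 53.6, for counting error only) and BMPR1A at 76.2. Schwann-like cells (108) had ACVR1 at 71.0 (46.4 to 104). An unnamed cluster of 109 cells led by OXT, of which 96.3% came from 1 ewe, had BMPR1B at 85.3 and no AMH. Within eGC-like cells, the sub-cluster led by PTPRD and COCH held AMHR2 at 9.83 CPM, from 11 UMI, and AMH at 193 CPM, with 75.6% of its 172 cells from 1 ewe. These values have no test, and they pool the cells of all ewes.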
